A study of Homo sapiens with 14 samples.

Results

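Housekeeping genes serve every cell and are often taken as a reference for active promoters, and 9 of them were followed here through the NF-κB binding map of L1236, an established Hodgkin lymphoma cell line. The genes were ACTB (ENSG00000075624), GAPDH (ENSG00000111640), EEF1A1 (ENSG00000156508), HSP90AA1 (ENSG00000080824), HSPA8 (ENSG00000109971), ENO1 (ENSG00000074800), LDHA (ENSG00000134333), NPM1 (ENSG00000181163) and POR (ENSG00000127948). A ChIP-seq region counted as a member where its closest gene or its closest transcription start site (TSS) belonged to a gene of this list, and 22 of the 14865 regions of the series did so. These lay at 8 of the 9 genes. POR had no region. Chromatin from L1236 cells was precipitated with antibodies against p50, p52, RelA (p65) or RelB, with 2 libraries for each subunit, and 6 input DNA libraries gave the background. The p50, RelA and RelB antibodies were the same in both libraries, whereas each p52 library was made with an antibody of its own. L1236 was the only line mapped and no expression values were used, so the constitutive use of these genes is textbook background here and was not checked in these cells.

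NF-κB is a family of transcription factors that bind DNA as dimers. RelA and RelB carry a transactivation domain, whereas p50 and p52, the processed products of NFKB1 and NFKB2, lack this domain and act on transcription through their partners or as homodimers with cofactors. In resting B cells most NF-κB is held in the cytoplasm, while Hodgkin lymphoma cells are known for constitutive activity of both the canonical pathway, with p50 and RelA, and the non-canonical pathway, with p52 and RelB.

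Every one of the 22 regions carried a p50 call, while p52 was called in 16 of them, RelB in 9 and RelA in 1. With a stricter reproducibility bound, an irreproducible discovery rate (IDR) below 0.001, RelB kept 4 calls and RelA 0. A call is the authors' final decision per subunit and region, made on merged replicates after a test of reproducibility. Over the whole map, calls were made in 73.8% of the 14865 regions for p50 and in 73.3% for p52, whereas RelB was called in 26.8% and RelA in 3.31%. The p52 count of the members was thus near the background, and the difference in p50 was not tested, because several of the regions share a gene. A region covered the TSS at 5 genes, namely ACTB, GAPDH, EEF1A1, HSP90AA1 and HSPA8. ENO1, LDHA and NPM1 had only regions away from the TSS, the nearest at 11149 bp, 2481 bp and 31919 bp. By the deposited distances, no further member region lay within 1 kb of a TSS. For HSP90AA1 these distances ran from the upstream start only, so a region at its downstream RefSeq start was not counted as a TSS region. The deposited table counts 1654137 p50, 1810792 p52, 470788 RelB and 315151 RelA reads in all regions, so that values for RelA and RelB rest on fewer reads than those for p50 and p52.

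**Figure D1:**
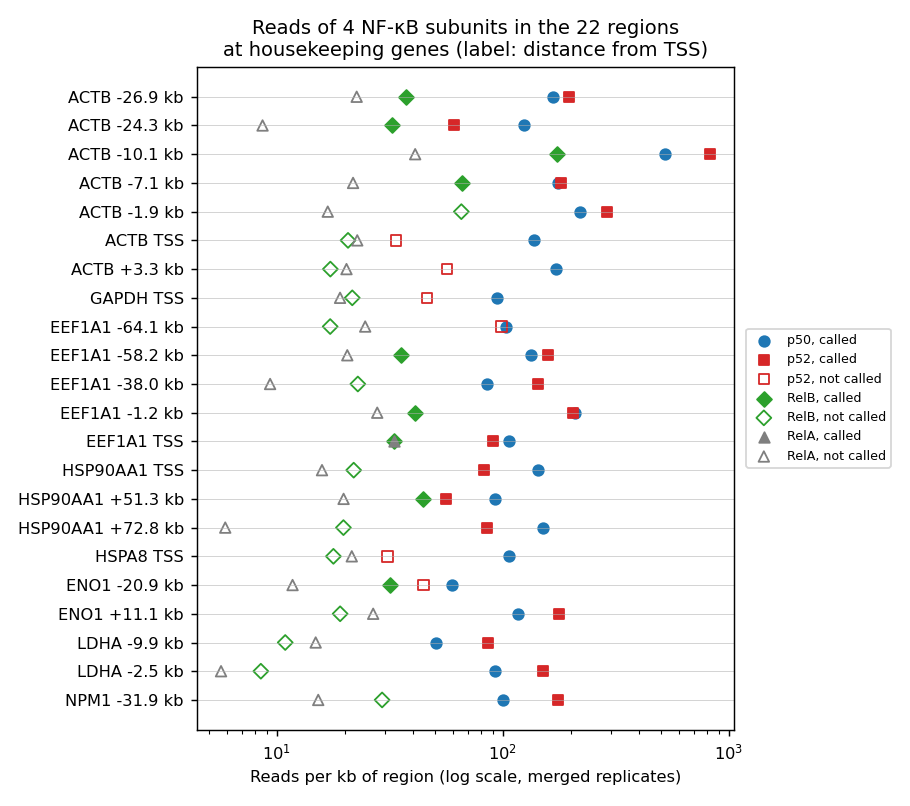
Reads per kb of region (log scale, replicates merged) for p50, p52, RelB and RelA in each of the 22 regions, labelled by gene and distance from the TSS in kb, with filled symbols for called and open symbols for uncalled subunits. All 22 p50 symbols are filled, the region 10101 bp upstream of ACTB lies to the right of all others for p50, p52 and RelB, and the only filled RelA symbol, at the EEF1A1 TSS, overlies that of RelB.

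The promoters of the genes with a region over the TSS are shown so that the sequence next to these starts can be read, with both RefSeq starts of HSP90AA1. No call was placed on them, since the map is on hg18. They are the 250 bases before each start in RefSeq (GRCh38.p14), written 5′ to 3′ in the direction of transcription. The table held 7 of the 9 genes, without ACTB and POR. Starts that it does not list were not searched, and whether the start listed for GAPDH is its main one was not checked. GAPDH starts on chromosome 12, EEF1A1 on chromosome 6, HSPA8 on chromosome 11 and HSP90AA1 on chromosome 14. Capitals mark matches, on either strand, to the GC box GGGCGG, the CCAAT box CCAAT or the heat shock element GAANNTTC.

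GAPDH: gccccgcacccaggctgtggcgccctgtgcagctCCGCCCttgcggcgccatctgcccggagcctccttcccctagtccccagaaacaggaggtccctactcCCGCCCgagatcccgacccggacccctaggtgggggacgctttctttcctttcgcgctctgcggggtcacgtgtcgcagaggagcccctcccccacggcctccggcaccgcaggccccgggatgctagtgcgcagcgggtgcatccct

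EEF1A1: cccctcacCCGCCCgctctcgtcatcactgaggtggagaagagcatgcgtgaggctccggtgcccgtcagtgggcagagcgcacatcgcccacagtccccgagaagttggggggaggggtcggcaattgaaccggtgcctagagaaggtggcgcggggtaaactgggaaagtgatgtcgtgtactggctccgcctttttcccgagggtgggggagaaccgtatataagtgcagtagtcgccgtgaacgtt

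HSPA8: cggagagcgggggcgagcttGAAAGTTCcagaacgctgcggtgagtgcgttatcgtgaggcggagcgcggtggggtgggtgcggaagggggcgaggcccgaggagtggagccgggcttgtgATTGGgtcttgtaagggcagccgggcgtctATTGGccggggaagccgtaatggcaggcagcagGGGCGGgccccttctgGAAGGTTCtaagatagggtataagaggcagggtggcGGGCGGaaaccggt

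HSP90AA1, upstream start: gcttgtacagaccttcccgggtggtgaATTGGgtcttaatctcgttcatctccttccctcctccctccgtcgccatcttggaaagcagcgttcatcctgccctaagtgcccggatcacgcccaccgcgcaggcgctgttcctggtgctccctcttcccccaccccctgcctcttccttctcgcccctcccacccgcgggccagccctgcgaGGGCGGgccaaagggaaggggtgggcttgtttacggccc

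HSP90AA1, downstream start: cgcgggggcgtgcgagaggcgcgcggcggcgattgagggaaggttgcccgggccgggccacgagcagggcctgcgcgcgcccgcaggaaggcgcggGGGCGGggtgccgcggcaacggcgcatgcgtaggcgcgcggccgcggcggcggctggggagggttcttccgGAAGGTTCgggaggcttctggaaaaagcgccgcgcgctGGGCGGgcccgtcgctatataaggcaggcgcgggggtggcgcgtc

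The NF-κB consensus, searched on both strands, was found in none of the 10 promoters of the 7 genes and in 5.21% of 35116 RefSeq promoters of the same length. The exact letters TATAAA were also in none, against 10.7% of all. Looser forms of the TATA box were not searched, and the sequences before EEF1A1 and the downstream HSP90AA1 start hold tatataag near their ends. A TATA box is therefore not shown to be absent. GGGCGG occurred 2 times before GAPDH, 1 time before EEF1A1, 2 times before HSPA8, 1 time before the upstream HSP90AA1 start and 2 times before the downstream one, and 42.6% of all promoters held it. CCAAT occurred 2 times before HSPA8 and 1 time before the upstream HSP90AA1 start, against 32% of all promoters. GAANNTTC, the element read by heat shock factor, stood 230 and 50 bases before HSPA8 and 83 bases before the downstream HSP90AA1 start, against 5.78% of all promoters. Motifs outside these windows were not searched, since no hg18 genome was used, and the absence of these letters from 250 bases says nothing about the regions, which were 1327 to 3575 bp wide. The GC content of the member promoters ran from 46.4% to 77.6%, with a median of 58% over all promoters.

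All 5 regions over a TSS were called for p50, as were 96.1% of the 2447 regions of the series over a TSS. ACTB, GAPDH and HSPA8 were called for p50 alone, a class that held 42.2% of all TSS regions. HSP90AA1 was called for p50 and p52, and EEF1A1 for all 4 subunits, so that 2 of 5 were called for p52, 1 of 5 for RelB and 1 of 5 for RelA, beside 53.1%, 25.9% and 4.74% of all TSS regions. The p50 fold enrichment, the ratio of the merged ChIP to the input at the summit, had a median of 18.2 over the 5 regions and of 17.6 over the 2351 p50 regions at a TSS. The members spread from 11.4 to 32.1, around the middle of that distribution.

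**Figure D2:**
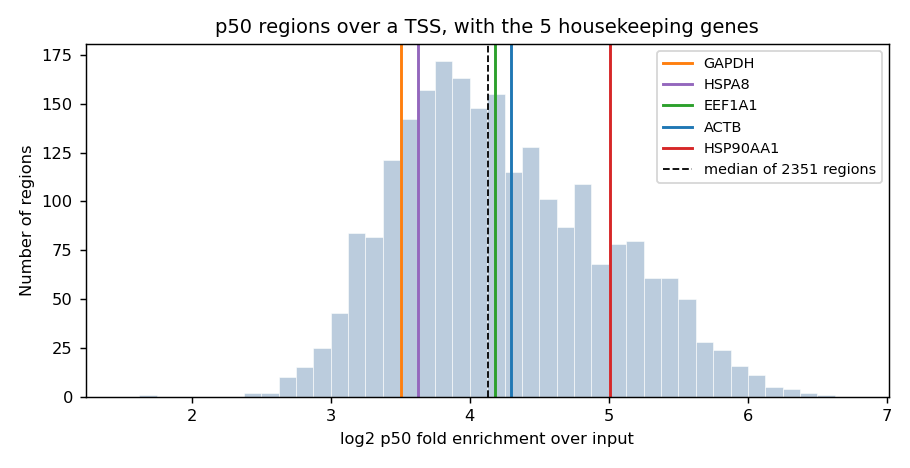
Histogram of the log2 p50 fold enrichment over input for the 2351 regions over a TSS that were called for p50, with the 5 housekeeping genes as coloured lines and the median as a dashed line. GAPDH and HSPA8 lie below the median, EEF1A1 and ACTB just above it, and HSP90AA1 at the percentile of 82.3.

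GAPDH, the glycolytic enzyme that oxidises glyceraldehyde 3-phosphate, had a single region at chr12:6511748-6515322 (hg18). It held 336 p50, 165 p52, 77 RelB and 68 RelA reads and had the lowest p50 fold enrichment of the 5, 11.4, at percentile 16.6 of TSS regions. The signal values of the p50 replicates, a score of each library that entered the reproducibility analysis, were 317 and 153. HSPA8, the constitutively expressed heat shock cognate chaperone, also had a single region, at chr11:122437240-122439152. It held 204 p50, 59 p52, 34 RelB and 41 RelA reads, with a p50 fold enrichment of 12.4 at percentile 22.7 and signal values of 178 and 308. Both promoters therefore sat in the lower part of the p50 regions at a TSS, and the ranges of their signal values overlapped.

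EEF1A1, the elongation factor that delivers aminoacyl-tRNA to the ribosome, was covered by chr6:74286079-74288395. The fold enrichment of p50 was 18.2 and that of p52 15.9, while RelB reached 6.36 and RelA 5.30, from 246, 210, 76 and 76 reads. The p50 signal values were 271 and 302, and those of RelA were 81.3 and 30.1. This was the only RelA call among the 22 regions, and it was at percentile 32.5 of the RelA regions of the series by fold enrichment. At an IDR below 0.001 in place of the file's bound of 0.01 the RelA call was lost. The summits of p52 and RelB lay 70 bp and 76 bp above the p50 summit in coordinate, and that of RelA 197 bp below it.

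HSP90AA1, the stress-inducible cytosolic HSP90 chaperone, had the highest p50 value of the 5. Its TSS region, chr14:101674821-101676147, had a fold enrichment of 32.1 for p50, at percentile 82.3, and of 22.6 for p52, from 190 p50, 109 p52, 29 RelB and 21 RelA reads. The p50 signal values were 513 and 707, whereas those of p52 were 86.7 and 711, so the p52 call rested on replicates far apart. A region inside the gene, chr14:101622360-101624185, lay 51309 bp downstream of the annotated TSS and was called for p50, p52 and RelB at 17.1, 11.0 and 13.0. The p50 summits of both regions were 52036 bp apart on hg18. RefSeq lists 2 starts of HSP90AA1, 52705 bp apart on GRCh38, and no coordinates were carried between the builds. Were the starts spaced alike on hg18, the downstream start would fall inside the internal region, but this was not tested. The internal region was counted here as not over a TSS, so the counts and medians of TSS regions leave it out. The internal region had the widest spread of p50 replicates among the members, with signal values of 114 and 470. The last region, chr14:101602222-101602729, lay 14410 bp beyond the gene and was called for p50 at 21.8 and for p52 at 13.8.

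ACTB, the cytoplasmic β-actin of the cytoskeleton, had 7 of the 22 regions, over 33781 bp of chromosome 7. Among the 7652 genes that were the closest TSS of any region the median was 1 region, and 211 genes (2.76%) had at least 7. The region over its TSS, chr7:5533795-5537236, was called for p50 alone with a fold enrichment of 19.7 (percentile 57.9 of TSS regions), and held 472 p50, 116 p52, 71 RelB and 78 RelA reads. The p50 signal values were 346 and 418. A region 3281 bp downstream of the TSS that overlapped the 3′ end of the gene, chr7:5531853-5533477, was likewise called for p50 alone, at 17.1, with 280 p50 and 92 p52 reads.

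The 5 regions upstream of ACTB had another composition, each being called for both p50 and p52. The nearest, chr7:5538654-5539845, lay 1896 bp upstream and had fold enrichments of 34.1 for p50 and 51.7 for p52, from 261 and 344 reads. It was not called for RelB, although its 65.4 RelB reads per kb were at percentile 99.7 of the 10881 regions without a RelB call. The next, chr7:5543849-5545736 at 7091 bp, was called for p50, p52 and RelB at 30.5, 37.6 and 17.6. Farther out, chr7:5561049-5563248 and chr7:5563681-5565633, at 24291 bp and 26923 bp, were called for the same subunits, with p50 values of 34.2 and 31.8, p52 values of 15.2 and 36.9, and RelB values of 7.25 and 6.96.

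The region 10101 bp upstream of ACTB, chr7:5546859-5549035, held the highest p50 pileup of the whole map. The pileup, which counts how many fragments overlap at the summit, was 315 for p50, rank 1 of 10975 p50 regions, and 325 for p52, rank 4 of 10893. The p50 signal values were 4815 and 2758, each at rank 2, and those of p52 were 3131 and 6437, at ranks 2 and 4 of their lists. By fold enrichment, which divides by the local background, it was lower in the order, with 64.5 for p50 and 77.5 for p52, at rank 58 for both. RelB had a fold enrichment of 24.1, at percentile 94.9 of RelB regions. The region held 1136 p50, 1794 p52, 379 RelB and 89 RelA reads, or 36.9%, 56.0%, 46.0% and 27.5% of the reads of each subunit in the 7 ACTB regions. RelA was not called there, with 40.9 reads per kb beside a median of 15.3 over the regions without a RelA call.

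**Figure D3:**
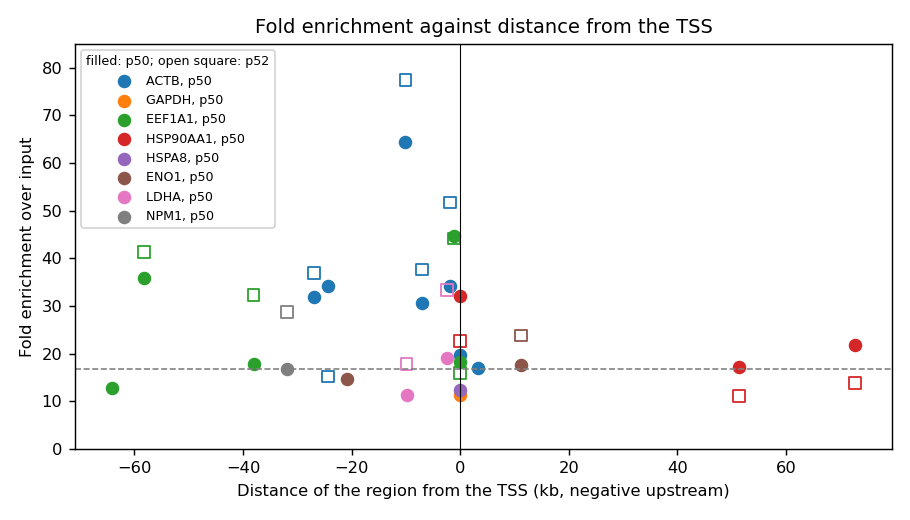
Fold enrichment over input against the distance of the region from the TSS in kb, negative upstream, for the 22 regions, with filled circles for p50 and open squares of the same colour for p52 where it was called. The dashed line is the median p50 value of all p50 regions, 16.8, and the highest pair of points, 64.5 for p50 and 77.5 for p52, is the ACTB region 10101 bp upstream.

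Upstream of EEF1A1 lay 4 further regions, for 3 of which the closest gene was ENSG00000119899. The nearest, chr6:74289538-74290545 at 1194 bp, had the next highest p50 value of the members, 44.8, with 44.1 for p52 and 8.06 for RelB. Its p50 enrichment was above that of the TSS region next to it, 18.2, with signal values of 900 and 1669 against 271 and 302, which do not overlap. The regions at 38049 bp and 58177 bp, chr6:74326393-74327357 and chr6:74346521-74347741, had p50 values of 17.8 and 35.8 and p52 values of 32.2 and 41.3, the farther being called also for RelB at 9.19. The farthest, chr6:74352426-74352832 at 64082 bp, was called for p50 alone at 12.8 with 42 p50 and 40 p52 reads.

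The glycolytic genes ENO1, encoding enolase, and LDHA, encoding lactate dehydrogenase A, had only regions off the TSS, between percentiles 18.1 and 58.9 of all p50 regions by p50 fold enrichment. ENO1 had a region overlapping the gene, 11149 bp downstream of the TSS, chr1:8849431-8850218, with 17.7 for p50 and 23.8 for p52, and another 20935 bp upstream, chr1:8882302-8883154, which was called for p50 at 14.6 and for RelB at 7.43 but not for p52. LDHA had regions 2481 bp and 9865 bp upstream, chr11:18369500-18370206 and chr11:18361812-18362822, with 19.1 and 11.4 for p50 and 33.4 and 17.8 for p52. NPM1, a nucleolar chaperone of ribosome assembly, had a single region 31919 bp upstream, chr5:170714697-170715484, with 16.7 for p50 and 28.7 for p52. At all 4 regions of these genes with a p52 call the p52 enrichment was above that of p50. This order also held at some upstream regions of ACTB and EEF1A1 and was reversed at others. Its share over the series was not counted, and the enrichments of p50 and p52 come from different antibodies.

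Away from the TSS p50 and p52 were called together in 14 of 17 member regions, 7 of them with RelB. This pair was called in 51.6% of the 12418 regions of the series not over a TSS. All 17 had a p50 call, and among the 8624 such regions of the series with a p50 call the pair was called in 6405. Of the other member regions, 2 were called for p50 alone and 1 for p50 and RelB. By subunit, all 17 carried a p50 call, 14 a p52 call, 8 a RelB call and 0 a RelA call, against 69.4%, 77.3%, 27% and 3.03% of all regions not over a TSS. The median p50 fold enrichment was 19.1, beside 16.7 over all such p50 regions, and the median of p52 was 32.8 (n = 14) beside 17.1. All 14 were called for p50 too, whereas the p52 regions of the series included 2879 called for p52 alone, so the sets are unlike. ACTB contributed 6 of the 17 and 5 of the 14. Over all 22 regions the p50 median was 18.6, beside 16.8 for the series, and it was 31.8 for the 7 ACTB regions and 17.7 for the 15 others.

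The division of reads between p50 and p52 can be taken in a region whichever subunit was called, although each region exists through a call. The p50 share of the p50 and p52 reads had a median of 67.1% over the 5 TSS regions, beside 64.6% over all TSS regions, and of 46.0% over the 17 others, beside 44.8% over all others. The medians of the members were thus near those of the series at both kinds of site. Off the TSS the sets are unlike, since all members but 69.4% of the series had a p50 call. The share was highest at the ACTB TSS, 80.3% (95% Wilson interval 76.9 to 83.3), at percentile 96.8 of TSS regions. It was 77.6% (72.1 to 82.2) at HSPA8, 67.1% (62.8 to 71.0) at GAPDH, 63.5% (57.9 to 68.8) at HSP90AA1 and 53.9% (49.4 to 58.5) at EEF1A1. The intervals of neighbours in this order overlapped, apart from those of HSPA8 and GAPDH. At ACTB the share fell to 43.1% (39.2 to 47.1) in the region 1896 bp upstream and to 38.8% (37.0 to 40.6) in the strongest region, with intervals far below that of the TSS region. The region upstream at 24291 bp did not follow this, with 67.2% (62.5 to 71.6), which is above the median of all TSS regions. The share in the region at the 3′ end of ACTB was 75.3% (70.6 to 79.4), an interval that overlaps that of the TSS region. These intervals cover counting error only, since the reads are pooled over replicates and, for p52, over antibodies.

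**Figure D4:**
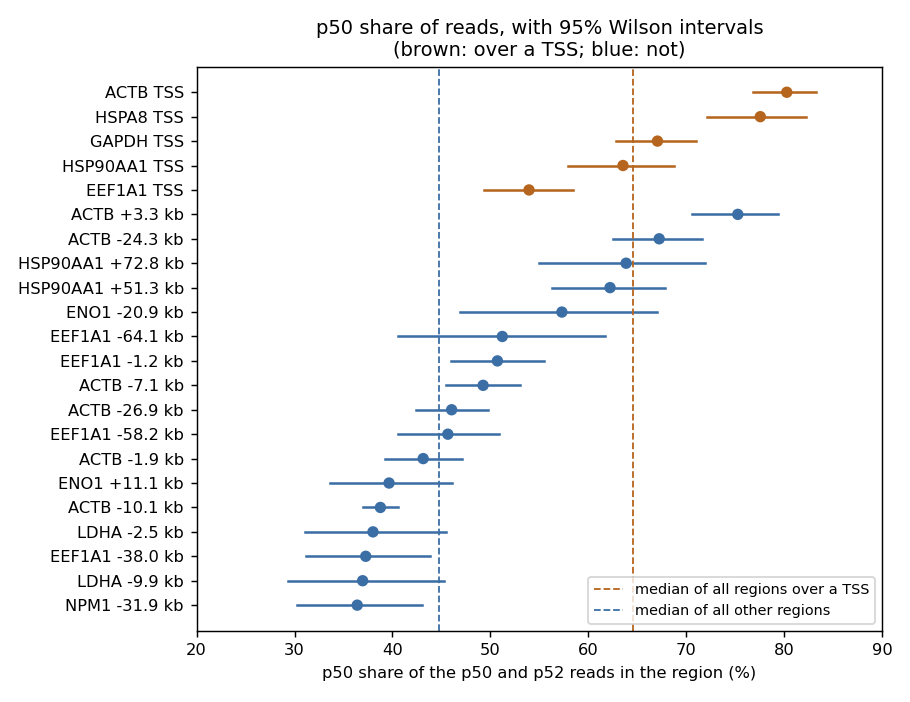
Share of p50 in the p50 and p52 reads of each of the 22 regions in percent, with 95% Wilson intervals as bars, in brown for the 5 regions over a TSS and in blue for the 17 others, and with the medians of all such regions of the series, 64.6% and 44.8%, as dashed lines. The TSS regions span 53.9% to 80.3%, while the others reach from 36.4% at NPM1 to 75.3% in the region at the 3′ end of ACTB.

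Most of the member TSS regions were also wide, with a median of 2317 bp beside 1358 bp over all TSS regions. The GAPDH region of 3575 bp was at percentile 98.6 and the ACTB region of 3442 bp at percentile 98.4. The EEF1A1 and HSPA8 regions were at percentiles 89.1 and 78.8, but the HSP90AA1 region of 1327 bp was at percentile 47.9. Read sums grow with the width of a region. Per kb, the 5 regions held 94.0 to 143 p50 reads, with a median of 107 beside 105 for all TSS regions.

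In regions without a call reads of RelA and RelB were few but present. The 21 members not called for RelA had a median of 19.7 RelA reads per kb, beside 15.3 over the 14373 uncalled regions of the series, and the 13 not called for RelB had 19.7 RelB reads per kb beside 16.5. Input reads per region were not used here, so the part of local background in these values was not tested. The ratio of p50 pileup to fold enrichment, which follows the background at the summit, had a median of 3.27 in the members and of 3.36 in all p50 regions. Over a TSS the medians were 3.92 in the members and 3.34 in the series, and elsewhere 3.02 and 3.37. In the ACTB regions the ratio ran from 3.42 to 4.89, the highest being in the region 10101 bp upstream.

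Where both p50 and p52 were called, their summits lay close together. The median gap was 12.5 bp over 16 regions, with 15 of 16 within 50 bp, beside 11 bp over the 7643 regions of the series. For p50 and RelB it was 17 bp over 9 regions, beside 17.5 bp over 3058. The p50 summit and the p52 summit fell on the same base at the HSP90AA1 TSS.

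The spread between replicates limits how finely the members can be ordered. The p50 signal values of the libraries were within 2-fold of each other in 17 of 22 member regions and in 80.2% of the 10975 p50 regions of the series. The first value was the higher in 12 of the 22. The SD of their log2 ratio was 0.85 in the members and 0.76 in the series. This spread is that of the signal values, since fold enrichment was given for merged replicates only. The TSS p50 enrichments of GAPDH and HSPA8 were 11.4 and 12.4, and those of EEF1A1 and ACTB 18.2 and 19.7. The order within these pairs was not tested. The ACTB region at 10101 bp stood above all other members in both signal values.

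ACTB and POR also served in the study as reference sites without recruitment for qPCR of precipitated DNA, and their primers are shown for that reason.

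ACTB forward: aggcatcctcaccctgaagtac

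ACTB reverse: tctccatgtcgtcccagttg

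POR pair 1 forward: cctgaacccacacagttcct

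POR pair 1 reverse: cgaaggacatgcttctgtca

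POR pair 2 forward: gccagagccttgtctaggtg

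POR pair 2 reverse: gacaccccaatcaaagcagt

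Placed on hg18 by their distance from the TSS, the ACTB primers span 65 bp inside the TSS region called for p50 alone. Whether that distance was counted along the gene or along the transcript is not given in the sources used here. POR, the flavoprotein that passes electrons to cytochrome P450 enzymes, was different. Its primer pairs lay 68594 bp and 63011 bp from the nearest region, which was called for p52 and RelB and assigned to ENSG00000127952, and the gene itself was 21961 bp from any region. A site downstream of NFKBIA, the study's other reference, is at none of the 9 genes and was not analysed here.

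The same values were taken for 33 other genes, picked as constitutively used from those whose symbol was at hand. Their constitutive use was not checked in these cells. Of these, 20 had a region, 39 regions in all, and 11 had a region over the TSS. All 11 were called for p50, 6 of them for p50 alone and 5 together with p52. By class, a TSS region was present at 4 of 10 genes of actin and the Arp2/3 complex, which branches actin filaments, at 3 of 13 ATP synthase genes, at 2 of 5 ARF GTPases of vesicle traffic and at 2 of 5 others. The p50 fold enrichment at these TSS had a median of 15.7, from 7.84 at ARF4 to 28.1 at ARF3, and the p50 share a median of 65.7%, beside 18.2 and 67.1% for the 5 members. Off the TSS, 12 of their 28 regions were called for both p50 and p52, beside 14 of 17 for the members and 51.6% in the series. Among off-TSS regions with a p50 call, these counts were 12 of 18, 14 of 17 and 6405 of 8624. A p50 call was absent from 10 of the 28, whereas every member region had it. ATP5G3 alone contributed 10 of the 28, and the difference between the lists was not tested.

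By reads per kb of the 4 subunits, each member promoter was set beside 301 other TSS regions, those for which a gene symbol was at hand. Likeness was taken as the Euclidean distance of log2(reads per kb + 1). The rest of the 2447 TSS regions were not compared, so a nearer one may lie among them. The nearest to ACTB was ALAD at a distance of 0.36, to GAPDH AC009090.12 at 0.12, to EEF1A1 AC136632.3-3 at 0.39, to HSP90AA1 ARF3 at 0.23 and to HSPA8 ARPC1B at 0.22. ARF3, like HSP90AA1, was called for p50 and p52, with p50 fold enrichments of 28.1 and 32.1. ALAD and ARPC1B were called for p50 alone like ACTB and HSPA8. The exception was EEF1A1, whose neighbour was called for p50 and p52 only.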

How the data were processed

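Alignment to hg18 was done by the authors with Bowtie. Reads mapping to a single place were retained without duplicates, and MACS called the peaks. The study states that libraries were sampled down to 10000000 reads, although it lists fewer mapped reads for both RelB libraries. The authors compared replicates by their irreproducible discovery rate (IDR), deposited as a fraction, and the replicates were merged for the final calls, and peaks of the subunits were joined to union regions with distances from Ensembl version 54. The deposited read counts are whole reads per region of merged replicates. The deposited fold enrichment is a ratio over input, the deposited pileup a coverage signal, and the deposited FDR a q-value. The deposited signal values are a score per replicate whose scale is not given in the sources used here. The authors' threshold was 0.05 for IDR and FDR, and the highest IDR in the file was 0.009998 and the highest FDR 0.0157.

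From these values, calls, medians, percentiles, shares with 95% Wilson intervals and distances were computed with pandas 2.3.3 and numpy 2.4.6 in Python 3.11.15 and drawn with matplotlib 3.10.9, after the functions had been tested on simulated data. No test between groups was made, since the file holds merged values and regions are not replicates. Intervals cover counting error only. All 9 genes were named, and of 33 other constitutive genes those with the highest and lowest p50 enrichment at a TSS. Beside each member promoter the single most alike one was named, among the TSS regions with a gene symbol at hand. The members and lists were chosen with earlier results of these data known. Alternatives were stricter calls, assignment by closest gene or TSS alone, a TSS window of 1 kb, pileup or single signal values in place of fold enrichment, scaled reads and leaving out genes.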

Additional observations from a re-analysis of the deposited data

How the results depend on the processing

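Of 40 alternative values for 11 results, 34 stayed within the limit set for them and 6 moved. The limit was 1.5 times for a count and the replicate error for a median enrichment. For the median share it was the Wilson interval of the GAPDH region, whose share is the median. For the percentile it was the SD of the percentiles by both signal values, which were also among the values judged. The replicate error was taken from the p50 signal values, since fold enrichment was given for merged replicates only. An IDR below 0.01 changed nothing, since no IDR in the file is higher. An FDR below 1e-05 and a fold enrichment of at least 5 also left all calls of the members in place. At an IDR below 0.001, a threshold chosen after the data were seen, RelB calls dropped from 9 to 4 and the single RelA call at EEF1A1 was lost, leaving 0, while 17 p50 and 13 p52 calls stayed. Assignment by closest gene alone gave 19 regions in place of 22, without the 3 EEF1A1 regions nearer to another gene, and 8 genes in both cases. The median p50 enrichment of the TSS regions stood at percentile 52.6 of all TSS regions by fold enrichment and 51.7 by pileup, but with either replicate left out at 43.8 to 47.9 by signal value. Leaving out each gene in turn, also added later, kept that median between 15.3 and 18.9. The median p50 share of 67.1% became 72.3% without EEF1A1 and 72.3% without HSP90AA1, and 69.0% with reads scaled by the total of each subunit. The ACTB region with rank 1 of p50 by pileup had rank 58 by fold enrichment. No paired analysis was possible because the table holds merged values, and its signal values carry no replicate number. The counting error is widest for RelA and RelB, with 3 to 89 and 6 to 379 reads per member region.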
